A study of Mus musculus with 32 samples.

Results

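Non-cycling intermediate progenitors were taken from droplet single-cell RNA counts of the mouse dorsal telencephalon, the embryonic tissue that becomes the cerebral cortex. A barcode, which stands for a captured cell, counted as one of them when it held at least 1000 UMIs (unique molecular identifiers, each marking a captured RNA molecule) and 500 genes, at least 2 UMIs of Eomes, no UMI of Top2a or Mki67, at most 2 of Reln and none of Gad2. The rule found 15238 cells among 143705 kept barcodes, or 10.6%. The cells were thus chosen by measured counts of Eomes, Top2a, Mki67, Reln and Gad2, so their own levels are given as a description and support nothing.

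The cells came from 32 libraries of C57BL/6J embryos in 8 groups of 4. WT embryos and Chd8+/- embryos, which carry 1 intact copy of the chromatin remodeller gene Chd8 and are called het here, were sampled on 4 embryonic days from E12.5 to E17.5, with E14.5 and E16.0 between them, and each group held male libraries M1 and M2 and female libraries F1 and F2. Per the series' design text, WT and het embryos were matched for litter and sex and handled individually. The spread between libraries thus holds that between embryos and whatever else differed between libraries. Both genotypes share the strain and the removal of the medial tissue, the labels name no treatment or tissue-specific driver, and the lesion of the Chd8 allele is not given in the sources used here.

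Intermediate progenitors arise from radial glia, the stem cells that line the ventricle, leave the ventricular surface and divide in the subventricular zone, mainly to give excitatory neurons. As they form, the radial glial transcription factors Pax6 and Sox2 decline, the proneural factor Neurog2 and then the T-box factor Eomes are switched on, and neuronal factors of the Neurod family follow. They also carry Delta ligands, which activate Notch receptors on neighbouring radial glia and help to keep those cells undifferentiated.

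Each library gave between 123 and 1056 of these cells, with summed counts between 462231 and 6370256 UMIs and a median per cell between 3462 and 8284 UMIs. By stage there were 2379 cells at E12.5, 4717 at E14.5, 5688 at E16.0 and 2454 at E17.5. The median mitochondrial share of a library lay between 0.813% and 1.21%. At E12.5 the het libraries M1, F1 and F2 were shallower than the others, with medians of 5171, 3462 and 5445 UMIs, where the 4 WT libraries lay between 6705 and 8284 and het M2 reached 7925. The 15238 cells had 15077 distinct barcode sequences, 160 of these (1.06%) occurred in more than 1 library, and no 2 libraries shared more than 4. At E17.5, WT M1, het M1 and het F1 stood apart from the other 5 libraries: of 4561 genes with a mean of at least 32 CPM (each count as a share of the summed UMIs of that class in a library, times 1000000), 737 were higher and 1226 lower in those 3 libraries without overlap. Atrx, a chromatin remodeller gene, lay between 334 and 430 CPM in the 3 and between 114 and 139 CPM in the 5, and the glycolysis gene Gapdh between 643 and 708 CPM against 1068 to 1671 CPM. The nuclear RNA Malat1 lay between 23052 and 27607 CPM against 11302 to 16206 CPM, and the immediate early gene Fos between 176 and 226 CPM against 11.6 to 89.2 CPM; their part in the results was not tested. Shares, total counts of called genes and the genes named for the last WT step are also given without them, and the counts by gene list are not. At E14.5 and E16.0 male and female libraries of both genotypes lay apart on the first principal component, the main axis within a stage. Male libraries lay between -12.5 and -8.23 and female ones between 5.50 and 15.9 at E14.5 (52.5% of variance). At E16.0 they lay between -10.2 and -5.77 and between 5.91 and 10.9 (52.3%). Sample codes of unknown meaning also start differently by sex there, so sex and code cannot be told apart.

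The label was checked against the marker genes Neurog2, Sstr2 and Mfap4, which the rule did not use. For reference, 7620 cycling intermediate progenitors (the same rule with a Top2a or Mki67 UMI), 8879 non-cycling radial glia (no Eomes, Pax6 present, at least 2 UMIs of Hes1 and Hes5 together, no Neurod6) and 51261 excitatory neurons (no Eomes, at least 2 UMIs of Neurod6) were taken from the same libraries. Neurog2 averaged 1429 CPM over the 32 libraries against 246 CPM in radial glia and 75.5 CPM in neurons, and was higher in the intermediate progenitors than in either in 32 of 32 libraries. Sstr2, a somatostatin receptor gene, averaged 374 CPM against 4.46 and 123 CPM, and Mfap4, which encodes an extracellular matrix protein, 401.3 CPM against 16.7 and 98.8 CPM, again with the same order in 32 of 32 libraries. The label was kept on this order, although both classes were chosen to have no Eomes. Cells with 1 Eomes UMI, which the rule leaves out, averaged 417, 285 and 222 CPM of Neurog2, Sstr2 and Mfap4. Those means are also above both classes, so the order does not single out the cells of the rule. Compared with cycling intermediate progenitors, Mfap4 was higher in 32, Sstr2 in 31 and Neurog2 in 25 of 32 libraries.

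Some other marker genes lay between radial glia and neurons, and others lay above both. Sox2, which maintains neural stem cells, averaged 96.9 CPM, under the 283 CPM of radial glia in 32 of 32 libraries and above the 13.9 CPM of neurons in 32 of 32. Pax6, the radial glial patterning factor, stood at 217 CPM between 435 and 32.4 CPM, and the Notch target Hes5 at 62.3 CPM between 539 and 17.03 CPM, where radial glia were chosen with both genes. Tubb3, the neuronal tubulin, took the opposite course with 1560 CPM in the intermediate progenitors, 116 CPM in radial glia and 3029 CPM in neurons, and Dcx, a microtubule protein of migrating neurons, stood at 266 CPM between 11.4 and 405 CPM. Genes higher than in both radial glia and neurons included Dll3, a Delta-family ligand (81.4 CPM against 2.57 in radial glia and 25.1 in neurons), Mfng, a glycosyltransferase that modifies Notch (347 against 27.05 and 46.2 CPM), and Elavl4, a neuronal RNA-binding protein (585 against 37.6 and 208 CPM), each in 32 of 32 libraries. Tmem108, also listed as a marker of intermediate progenitors, was at 105.9 CPM, above the 30.6 CPM of radial glia. It was under the 239 CPM of neurons and higher than in them in only 5 of 32 libraries. Neurod1, a neurogenic factor, was higher than in cycling intermediate progenitors in 32 of 32 libraries, at 219 against 129 CPM, and Insm1, a zinc-finger factor of basal progenitors, was lower in 32 of 32, at 147 against 230 CPM.

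**Figure D1:**
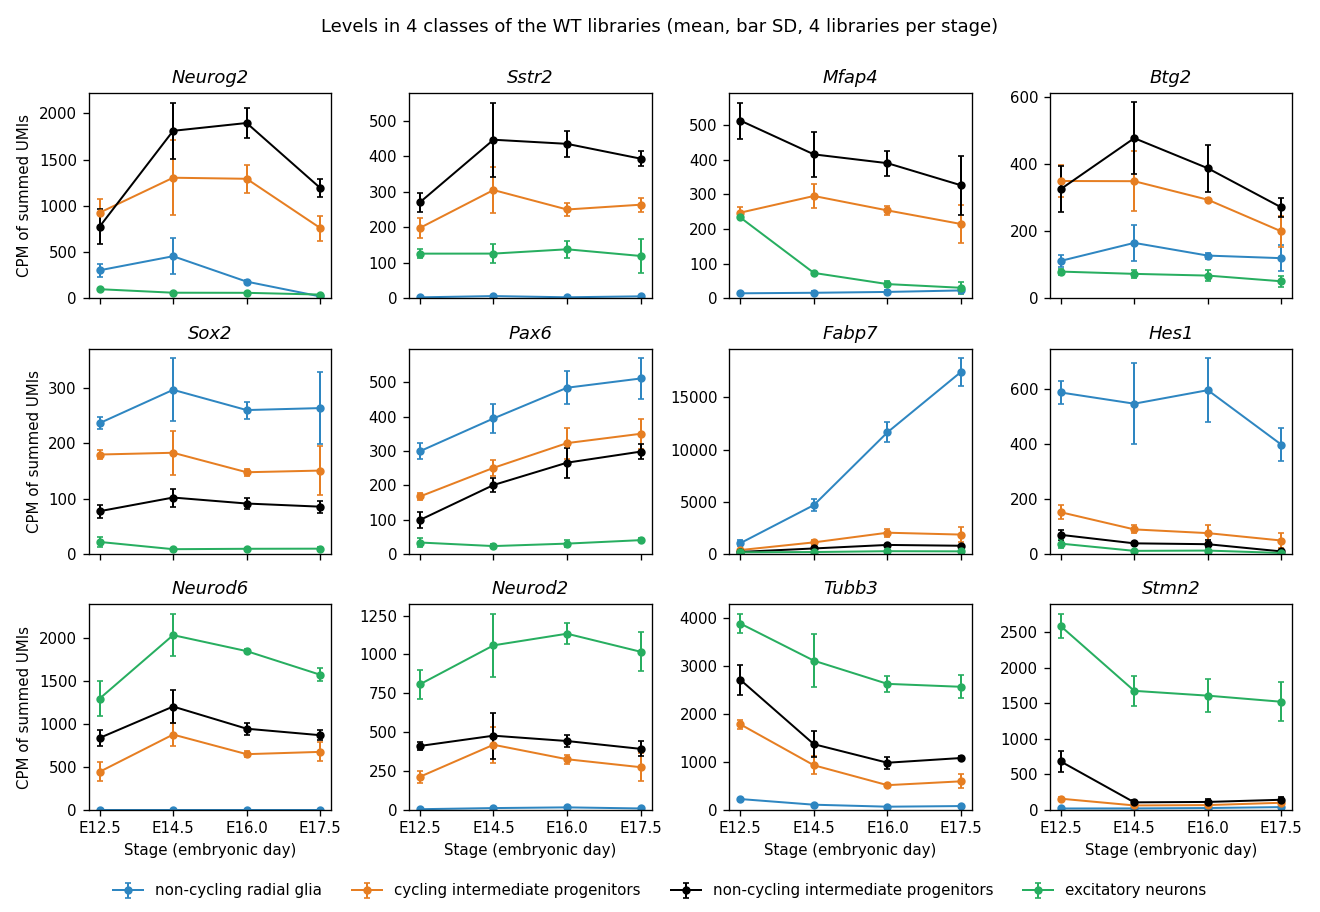
Mean level in WT libraries (CPM within the class) of marker genes in the non-cycling intermediate progenitors and the 3 reference classes at each stage; error bars are SDs over 4 libraries. Neurog2, Sstr2 and Mfap4 lie above radial glia and neurons at every stage, and Sox2 and Tubb3 lie between them.

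Markers of other cell types were low in these cells, apart from red blood cell RNA and Cajal-Retzius genes at E12.5. The summed CPM of the lists reached at most 41.2 for microglia (8 genes), 54.4 for endothelium (7), 48.5 for pericytes (6), 18.1 for meningeal fibroblasts (5) and 30.0 for oligodendrocyte precursors (5) in any library, and Csf1r, the defining microglial receptor, was at 0 in all 8 libraries at E17.5. Of all 15238 cells, 4 held 3 or more UMIs of the microglial markers, 4 of the endothelial and 1 of the fibroblast markers. The interneuron list (10 genes) summed to between 21.6 and 110.0 CPM, with Gad2 at 0 by the rule and Lhx6 at 0 in all libraries of E12.5. The red blood cell list (8 genes) ran from 36.3 to 11762 CPM and differed widely between libraries of one group. The Cajal-Retzius list (8 genes, Reln included) summed to between 253 and 417 CPM in WT and between 272 and 327 CPM in het libraries at E12.5, and to at most 55.1 CPM at any later stage. Their part in the results that follow was not tested.

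The rule cuts a continuous range of Eomes counts. The 3197 cells with exactly 2 Eomes UMIs, just inside it, had 819 CPM of Neurog2, 381 CPM of Sstr2 and 388 CPM of Mfap4 when pooled. The 6524 cells with 1 Eomes UMI and otherwise the same counts, just outside it, had 441 CPM of Neurog2, 276 CPM of Sstr2 and 236 CPM of Mfap4. The neuronal genes Neurod2 and Neurod6 were at 556 and 1229 CPM inside and 677 and 1247 CPM outside. The mean library medians of the cells inside and outside were 6427 and 6435 UMIs at E12.5 and 4939 and 4790 UMIs at E17.5. All cells taken by the rule, which were deeper than either, pooled to 1582 CPM of Neurog2 and 458 CPM of Neurod2.

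Within the population, progenitor and neuronal genes were found together in part of the cells. Shares of cells with both genes depend on how often each gene was found. They were not compared with those that unrelated genes would give, and no doublet caller was run. To compare cells of unequal depth, each was thinned to 3000 UMIs at random, which left out an average of 0% of WT cells at E12.5, 1.58% at E14.5, 6.91% at E16.0 and 5.86% at E17.5. A UMI of Neurog2 was then found in 65.6%, 80.7%, 80.7% and 69.2% of WT cells at the 4 stages in order (84.7%, 89.8%, 87.0% and 77.1% before thinning). The same share in Gad2 cells (at least 2 UMIs of Gad2, any count of Eomes), taken as a background, was 8.60%, 10.8%, 28.6% and 8.60%, at library medians of 6251, 5174, 3832 and 3638 UMIs against 7209, 7415, 5840 and 5981 UMIs in the intermediate progenitors. An Eomes UMI was found in 2.09%, 6.24%, 20.7% and 11.4% of these WT Gad2 cells, and many held Pax6 at E12.5. They are thus no clean negative class. Neurog2 was thus found well above that background at all 4 stages. Neurod6 was found in 67.2%, 77.1%, 72.5% and 77.0% of WT cells (76.0%, 83.7%, 79.4% and 84.0% before thinning) and in 4.51%, 14.6%, 28.7% and 23.0% of Gad2 cells.

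Both Pax6 and Neurod6 were found in the same thinned cell in 11.8% ± 2.41 (SD, n = 4) of WT cells at E12.5, 30.2% ± 5.62 at E14.5, 32.5% ± 3.49 at E16.0 and 37.6% ± 3.85 at E17.5. Neurod6 without Pax6 went the other way, from 55.4% ± 5.67 over 46.9% ± 2.995 and 40.0% ± 4.88 to 39.4% ± 5.08. The share with Pax6 itself was 24.1%, 42.5%, 49.8% and 53.8% (44.9%, 68.2%, 69.2% and 71.6% before thinning). In Gad2 cells it was 72.7%, 10.2%, 29.7% and 21.6%. The E12.5 value is a mean of libraries between 41.9% and 100%, and its 81 cells pooled gave 53.1%. Radial glia had 63.1% at E12.5 (63.3% pooled), so the Gad2 cells give no background for Pax6 there. In neurons the share was 9.39%, 6.70%, 7.72% and 10.1%. Neurog2 and Neurod1, the earlier and the later proneural factor, met in 31.0% ± 3.32, 25.0% ± 6.62, 20.9% ± 2.43 and 17.3% ± 2.76 of WT cells at the 4 stages, while Neurog2 without Neurod1 was found in 34.6% ± 5.61, 55.7% ± 7.51, 59.7% ± 4.43 and 52.0% ± 4.03. Neurod1 itself was found in 51.4%, 37.1%, 33.8% and 32.1% of WT cells (72.5%, 51.2%, 45.2% and 45.7% before thinning), and in 1.45%, 2.19%, 9.58% and 7.64% of Gad2 cells.

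The label non-cycling rests on 2 genes, and other cell cycle genes were low but not absent. The 20 genes of the G2 and M phase list summed to 848 ± 123 CPM in WT at E12.5, 359 ± 92.8 at E14.5, 312 ± 72.3 at E16.0 and 323 ± 110 at E17.5 (SD, n = 4). The sum was between 6072 and 6720 CPM in cycling intermediate progenitors, between 736 and 1344 CPM in radial glia and between 107 and 352 CPM in neurons over the same stages. Of the 20 S phase genes the sums were 1354, 980, 976 and 814 CPM, against 3016 to 3987 CPM in the cycling cells. At E12.5 the G2 and M phase sum ranged from 747 to 1017 CPM in WT and from 999 to 1370 CPM in het libraries. Of those het libraries 3 were the shallow ones, and its part in the het comparison at that stage was not tested. The cycling share of all Eomes cells (Top2a or Mki67 found) was, in WT and stage by stage, 53.6% ± 2.55, 24.03% ± 3.57, 28.3% ± 2.53 and 25.5% ± 2.80. Het libraries had 49.9% ± 9.73, 27.9% ± 4.86, 30.01% ± 2.26 and 28.96% ± 2.52. These shares were not thinned, and how often a Top2a or Mki67 UMI is found depends on depth. The library medians per kept barcode averaged 9925, 7544.5, 5615 and 4753.5 UMIs in WT at the stages in order. They averaged 6796 UMIs in het at E12.5. The part of depth in these shares was not tested.

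The share of kept barcodes in the population was largest at E14.5 and E16.0 in WT. In the order M1, M2, F1 and F2 E12.5 had 7.94%, 7.06%, 6.81% and 5.99%, E14.5 had 16.97%, 15.6%, 12.5% and 13.1%, E16.0 had 13.5%, 13.7%, 11.3% and 15.04%, and E17.5 had 7.92%, 10.02%, 6.62% and 10.3%. The libraries of E12.5 and E14.5 did not overlap, nor did those of E16.0 and E17.5, while E14.5 and E16.0 did. The difference was 7.59 percentage points from E12.5 to E14.5 (two-sided exact permutation test, p = 0.0286, adjusted p = 0.114 over 8 share comparisons), -1.15 points from E14.5 to E16.0 (p = 0.429, adjusted p = 0.687, exact) and -4.68 points from E16.0 to E17.5 (p = 0.0286, adjusted p = 0.114, exact). None of the 8 passed the adjustment; with 4 libraries against 4 no p under 0.0286 can be reached. After all barcodes were thinned to 3000 UMIs before the rule was applied, the differences were 6.98, 0.950 and -3.85 points. The thinned libraries of E16.0 and E17.5 then overlapped (exact permutation test, p = 0.0571, adjusted p = 0.229). Without WT M1 of E17.5, one of the libraries that stood apart, the last unthinned difference was -4.41 points.

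Het shares did not differ from WT beyond the spread of libraries at any stage. At E12.5 they were 4.49%, 7.85%, 2.82% and 3.41%, where M1, F1 and F2 lay under all 4 WT libraries and M2 near the highest of them. The difference was -2.30 points (exact permutation test, two-sided, p = 0.114, adjusted p = 0.305). It was -0.889 points after thinning, which took the WT mean from 6.95% to 3.83%. The 3 low libraries are the 3 shallow ones. After thinning they had 2.91%, 1.64% and 1.94%, still under all 4 WT libraries (2.95% to 4.79%), and M2 had 5.26%. The part of depth was not tested beyond this. At E14.5 the het libraries gave 15.3%, 16.9%, 13.6% and 13.7%. They gave 14.9%, 14.3%, 11.45% and 14.1% for E16.0 and 7.39%, 9.03%, 8.89% and 8.83%, all within or close to the WT range of the stage. Those differences were 0.331, 0.311 and -0.177 points (exact p of 0.771, 0.714 and 0.800, adjusted p = 0.800 for each). Over all stages the difference was -0.459 points (p = 0.429, adjusted p = 0.687, permutation test within stages with 100000 resamples), with het higher in 8 of 16 comparisons of libraries that share stage, sex and number. Without the 3 libraries that stood apart at E17.5 it was -0.427 points over the stages and -0.0464 points at E17.5. Over the stages it was 0.155 points without the 8 libraries of E12.5.

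**Figure D2:**
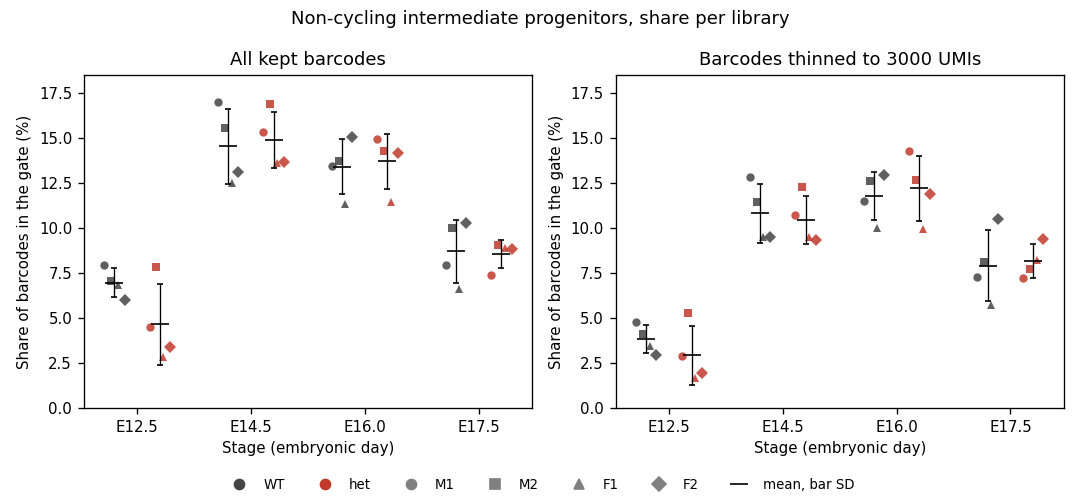
Share of kept barcodes (percent) that are non-cycling intermediate progenitors, by stage, with each symbol a library, the lines and bars group means and SDs over 4 libraries, and WT (grey) and het (red) side by side, before (left) and after (right) thinning to 3000 UMIs. Before thinning, WT means run from 6.95% at E12.5 to 14.54% at E14.5 and 8.71% at E17.5. Het libraries then overlap the WT range at every stage, at E12.5 through M2 alone. After thinning, het M1, F1 and F2 of E12.5 lie below all WT libraries of that stage and het M2 above them.

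Gene by gene, the summed counts of each library were compared with edgeR's quasi-likelihood test across 11417 genes, and a gene passed at a Benjamini-Hochberg adjusted p under 0.05. Between WT E12.5 and E14.5, 1477 genes were higher (12.9% of those tested) and 1468 lower (12.9%) at E14.5. Between E14.5 and E16.0, 373 were higher (3.27%) and 257 lower (2.25%), and between E16.0 and E17.5, 245 were higher (2.15%) and 245 lower (2.15%). The counts fell to 1745, 309 and 256 genes in all when cells were thinned to 3000 UMIs. Without the 3 libraries that stood apart, of which WT M1 belongs to this comparison, 638 genes passed between E16.0 and E17.5, 371 of them shared. Leaving out 1 WT library moved the second count to 386 (M1 of E14.5), 361 (M2 of E14.5), 409 (F2 of E14.5) or 393 (M2 of E16.0), and the third to 283 (M1 of E16.0), 261 (M2 of E16.0), 319 (F2 of E16.0) or 275 (M2 of E17.5). Levels below are CPM scaled by edgeR's library factors, in the order M1, M2, F1 and F2, changes are log2 fold changes with their standard error (SE), and the gene lists were written with earlier results of these data known. Counts of called list genes are to be set against the shares over all genes. Those were 12.9% up and 12.9% down at the first of these steps, 3.27% and 2.25% at the second and 2.15% and 2.15% at the third.

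The proneural genes of the population changed in opposite directions with time. Neurog2, the proneural factor that starts the cortical neurogenic programme, was at 1100, 787, 810 and 634 CPM at E12.5 and at 1778, 2222, 1683 and 1729 CPM at E14.5. It was at 1688, 1909, 1660 and 1849 CPM at E16.0 and at 1031, 1135, 1294 and 1219 CPM at E17.5. All 4 libraries of E14.5 lay above those of E12.5 and all 4 of E17.5 below those of E16.0, with a rise of 1.15 (SE 0.15, adjusted p = 3.3e-07), no called change between E14.5 and E16.0 (-0.06) and a fall of 0.60 at the last step (adjusted p = 0.013). The WT cells held a median of 3 Eomes UMIs in each E12.5 library and of 4 to 6 at E14.5, so the earlier cells lay nearer the cut. Pooled cells with exactly 2 Eomes UMIs had 819 CPM of Neurog2 against 1582 CPM over all cells. The part of this in the rise was not tested. Neurog1, a close relative of Neurog2, was at 83.2, 115, 98.9 and 125 CPM at E14.5, at 59.5, 58.0, 57.9 and 62.5 CPM at E16.0 and at 7.77, 6.82, 19.4 and 23.9 CPM at E17.5. It dropped by 0.83 and then by 2.09 on the log2 scale (adjusted p = 0.028 and 2.6e-05), with no overlap at either step. Neurod1 fell by 0.57 from E12.5 to E14.5 and did not pass later (-0.27 and -0.21), and Nhlh1, a helix-loop-helix factor of newborn neurons, fell by 1.23 and by 1.03 at the first steps. Of 19 tested genes of the proneural and neurogenic cascade, 3 rose and 7 fell at the first step, 0 and 5 at the second, and 1 and 3 at the third, with medians of -0.14, -0.27 and -0.06 against 0.02, 0.00 and 0.01 over all genes tested.

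Of the 16 markers listed for intermediate progenitors, 4 rose and 4 fell from E12.5 to E14.5, 5 fell from E14.5 to E16.0 and 4 fell from E16.0 to E17.5. The first rise includes Eomes, which the rule used, and Sstr2, with 314, 277, 309 and 266 CPM at E12.5 and 530, 500, 336 and 457 CPM at E14.5 (0.65, SE 0.14, adjusted p = 0.00048). Sstr2 then kept similar values, with changes of -0.16 and -0.08 that did not pass. Mfap4 passed at no step, with -0.38, -0.22 and -0.19, from 498, 550, 518 and 645 CPM at E12.5 to 195, 375, 320 and 395 CPM at E17.5, where the lowest value is WT M1, one of the libraries that stood apart. Gadd45g, a growth arrest gene of differentiating progenitors, fell by 0.84 at the second and by 1.00 at the third step.

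Among the Notch ligands, Dll1 fell at every step and the others at fewer. Dll1, a Delta ligand, was at 239, 170, 210 and 223 CPM at E12.5, at 92.0, 121, 82.9 and 74.2 CPM at E14.5, at 45.6, 50.9, 34.2 and 76.9 CPM at E16.0 and at 18.3, 24.1, 23.7 and 27.5 CPM at E17.5. It fell by 1.19, by 0.85 and by 1.14 (adjusted p = 1.1e-05, 0.0056 and 0.0022), and its libraries overlapped only between E14.5 and E16.0. Dll3 fell by 1.07 and by 0.61 before a last change of -0.06 that did not pass, so that 3 of 3 tested ligands fell at the first step (with Jag1, at -2.58), 2 at the second and 1 at the third. Hey1, a target of Notch signalling, was at 104, 96.9, 121 and 135 CPM at E12.5 and at 10.5, 14.4, 15.8 and 10.9 CPM at E17.5, with falls of 0.86, 1.21 and 1.07 and no overlap at any step. Hes1, a Notch target of radial glia, fell at the first and at the third step (-0.90 and -1.82). Nrarp, a feedback inhibitor of Notch, rose by 2.05 at the first, and the receptor gene Notch1 rose by 0.59 and by 0.69 at the first steps. Of 12 receptors and modulators, 1 rose and 2 fell, then 1 and 1, then none in either direction. Over all genes 12.9% rose and 12.9% fell at the first step, so the counts of this list there were near the background.

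Genes that mark later-born, upper-layer neurons rose in these progenitors, and deep-layer genes moved in both directions. Of 12 tested upper-layer factors, 10 rose at the first step, 4 at the second and 2 at the third, and none fell at any step (medians 0.94, 0.30 and 0.23). Unc5d, a netrin receptor of multipolar and upper-layer cells, was at 4.98, 4.27, 4.96 and 3.51 CPM at E12.5, at 49.1, 36.6, 31.1 and 35.4 CPM at E14.5, at 84.4, 79.3, 86.7 and 60.2 CPM at E16.0 and at 184, 128, 99.5 and 116 CPM at E17.5. Each stage lay above the one before without overlap, with rises of 3.10, 1.01 and 0.76 (adjusted p = 1.5e-10, 0.00057 and 0.0093). Thinned to 3000 UMIs, 1.27%, 9.89%, 19.1% and 30.5% of WT cells held an Unc5d UMI (2.84%, 19.2%, 29.4% and 44.0% before thinning), against 0 of 81 Gad2 cells, then 1.65%, 1.22% and 6.37% of them. Pou3f2 (Brn2), an upper-layer POU factor, rose from 65.4, 35.0, 51.8 and 41.3 CPM over 131, 160, 184 and 112 CPM to 315, 294, 329 and 303 CPM at E16.0, by 1.59 and by 1.09. Cux2, an upper-layer homeobox factor, rose by 0.89 at the first and 0.97 at the third step.

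Bcl11b (Ctip2), a factor of subcerebral neurons, was at 175, 164, 219 and 194 CPM at E12.5, at 143, 119, 98.1 and 111 CPM at E14.5, at 67.3, 51.4, 69.6 and 49.3 CPM at E16.0 and at 34.7, 31.3, 23.1 and 28.6 CPM at E17.5. No 2 neighbouring stages overlapped, and it fell by 0.67, by 0.99 and by 1.00. Fezf2, which specifies the same neurons, fell by 0.48, by 0.66 and by 0.66, and Tbr1, the layer 6 T-box factor, fell by 1.81 at the first step and then did not pass (-0.30 and 0.30). Of 10 deep-layer factors 5 fell and 3 rose at the first step, the latter being Foxp2, Lmo3 and Sox5 (1.36, 1.26 and 0.85), while only Bcl11b and Fezf2 fell at the second and at the third and none rose. Of 15 listed excitatory neuron markers, which include some of the same genes, 3 rose and 8 fell, then 1 and 4, then 1 and 2.

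Genes known to mark progenitor age moved in both directions. Zbtb20, a zinc-finger repressor of later progenitors, was at 79.4, 60.6, 51.8 and 67.1 CPM at E12.5, at 227, 231, 206 and 180 CPM at E14.5, at 396, 410, 457 and 447 CPM at E16.0 and at 960, 787, 646 and 604 CPM at E17.5. It rose by 1.70, by 1.02 and by 0.81 without overlap at any step. Nfix, a nuclear factor I gene, rose by 1.66 and, after a change of 0.23 that did not pass, by 0.64. Nfia, of the same family and list, fell by 0.64 at the first step. Hmga2, a chromatin protein of young stem cells, was at 26.6, 51.7, 35.5 and 32.8 CPM at E12.5 and at 5.51, 5.16, 7.78 and 3.99 CPM at E14.5, a fall of 2.74. The RNA-binding genes Lin28b and Igf2bp2 followed, Lin28b with a fall of 3.78 at the first step, to between 0 and 0.668 CPM, and Igf2bp2 with falls of 0.41, 0.67 and 1.71. Of 22 tested temporal genes, 4 rose and 9 fell, then 3 and 3, then 3 and 3. Over all genes 12.9% rose and 12.9% fell at the first step, 3.27% and 2.25% at the second and 2.15% and 2.15% at the third.

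**Figure D3:**
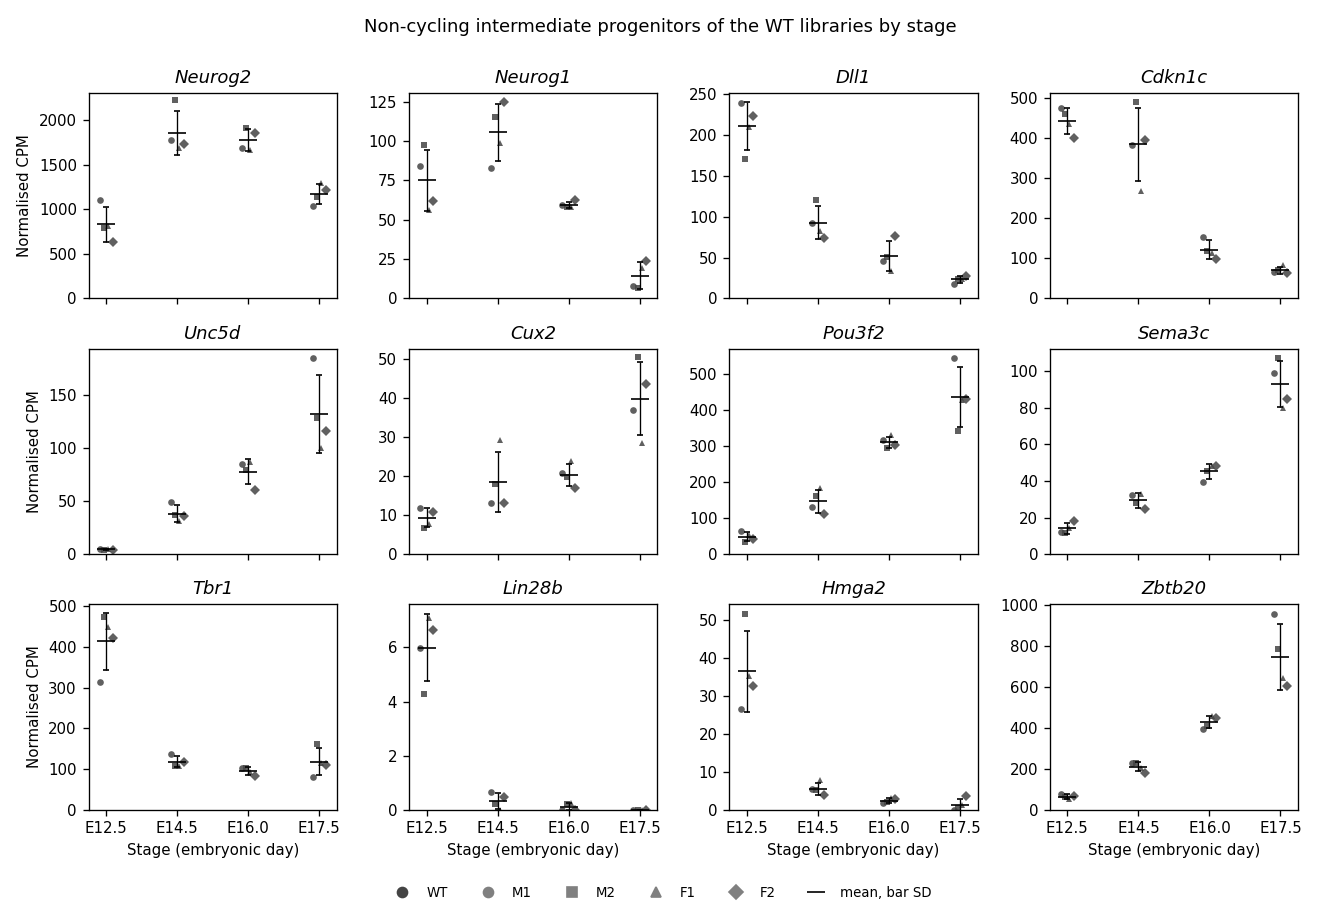
Level (CPM scaled by library factors, linear axes from 0) of 12 genes in the non-cycling intermediate progenitors of WT embryos by stage; each symbol is a library (M1, M2, F1 or F2), and the horizontal line and bar are the mean and SD of 4. Unc5d, Zbtb20 and Sema3c rise at every step, Dll1 falls at every step, and Neurog2 rises from E12.5 to E14.5 and falls from E16.0 to E17.5.

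At the first step, 12.9% of all genes rose and 12.9% fell. Of the 20 G2 and M phase genes 13 fell and none rose (median -1.14), among them Birc5, Bub1 and Ube2c, which act in mitosis, by 2.01, 1.99 and 1.74, and of the 20 S phase genes 10 fell and none rose (median -0.48). At the second and the third step none of either list passed, with medians of -0.23 and -0.11 for G2 and M phase and -0.13 and -0.11 for S phase. Among 20 genes of G1 and cell cycle exit 2 rose and 4 fell, then 1 and 2, then 1 and 3. The 2 rises at the first step were near the share over all genes. Cdk6, a G1 kinase, rose at each step (2.49, 1.07 and 0.69), from 14.3, 7.26, 9.93 and 3.90 CPM at E12.5 to 149, 193, 159 and 183 CPM at E17.5. Cdkn1c (p57), an inhibitor of G1 kinases, was at 476, 459, 434 and 400 CPM at E12.5 and 382, 490, 268 and 394 CPM at E14.5, a change of -0.20 that did not pass, then at 154, 119, 112 and 98.8 CPM at E16.0 and 64.9, 70.6, 82.5 and 63.4 CPM at E17.5, falls of 1.66 and 0.79.

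Of 15 radial glia markers tested, 6 rose and 2 fell at the first step, then 3 and 1, then none and 3, and the others did not pass. The first rises were led by Aldoc, a glycolytic enzyme of glia (2.82), Mfge8, a secreted glycoprotein (2.36), and the glutamate transporter gene Slc1a3 (1.32). Pax6 rose by 0.95, from 138, 113, 89.4 and 86.6 CPM to 181, 231, 209 and 206 CPM, without overlap, and did not pass later (0.28 and 0.23). The falls at the last step were those of Hes1, Vim, an intermediate filament gene (-0.98), and Aldoc (-0.74). In radial glia themselves the summed WT level of the list was 7084, 16498, 26901 and 34248 CPM at the 4 stages, against 2542, 3959, 5255 and 4219 CPM in the intermediate progenitors.

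In the multipolar and migration list (23 genes) 6 rose and 7 fell, then 3 and 1, then 2 and none. Sema3c, a secreted semaphorin, rose at every step (1.04, 0.63 and 1.04), from 12.3, 11.5, 14.54 and 18.3 CPM to 99.2, 107, 80.1 and 84.7 CPM, and the chemokine receptor gene Cxcr4 fell by 2.12 at the first. In the Wnt and beta-catenin list (22 genes) 7 rose and 3 fell, then 2 and 4, then none and 4. The DNA-binding partner Lef1 fell by 1.43 and 1.48 at the first steps, its relative Tcf7l1 by 1.15 and 2.57 at the later ones, and the receptor gene Fzd1 rose by 0.66 before falls of 0.93 and 1.62. Of 19 immediate early and stress genes 2 rose and 6 fell, then none and 2, then 1 and none, and of 14 p53 targets 2 rose and 3 fell, then 1 and none, then 1 and none. Over all genes 12.9% rose and 12.9% fell at the first step, so the rises in these 2 lists were near the background. Of 19 chromatin remodelling genes, Smarca2, a BAF complex ATPase, rose by 0.33, 0.44 and 0.70 and Chd7, the closest relative of Chd8 listed, fell by 0.42 at the second step; no other gene of that list passed.

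**Figure D4:**
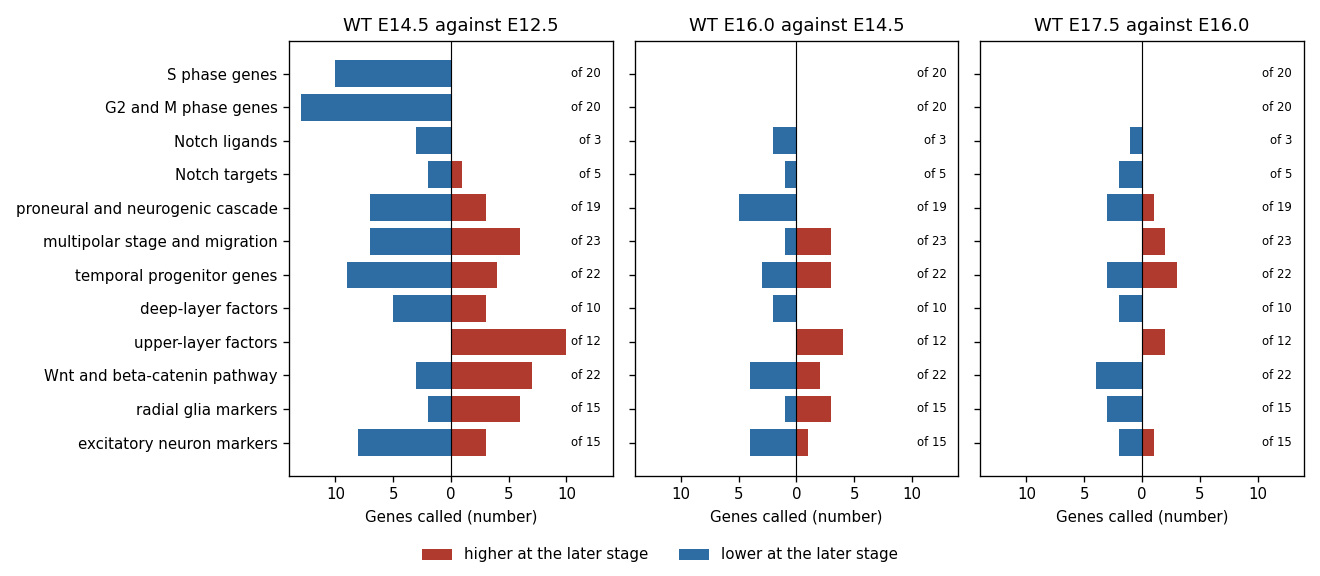
For 12 gene lists, the number of genes that rose (right, red) and fell (left, blue) in non-cycling intermediate progenitors between neighbouring WT stages, by edgeR's quasi-likelihood test at an adjusted p under 0.05, with the number tested at the right edge. Upper-layer factors have 10 rises and no fall at the first step, and G2 and M phase genes 13 falls and no rise.

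Markers of other cell types also moved between stages, and they are given beside the lists. All 6 tested Cajal-Retzius genes fell from E12.5 to E14.5, with Calb2 at -6.70 and Lhx5 at -3.73 besides Reln, which the rule used, and 2 (Reln and Nhlh2) fell at the second step. Of the 8 red blood cell genes 1 rose and 3 fell at the first, 1 rose at the second and 1 fell at the third. Among the interneuron genes Dlx5 rose at the first and Dlx2 at the third, Rgs5 of 2 pericyte genes rose at the first, and Lum of 1 fibroblast gene fell at the first; the 2 endothelial genes and the 1 oligodendrocyte precursor gene did not pass, and no microglial gene was abundant enough to be tested.

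Among genes with a mean of at least 32 CPM and no overlap of the libraries, those with the largest changes at the first step included Mpped1, a metallophosphoesterase gene, at 14.3, 9.82, 7.09 and 3.90 CPM at E12.5 and 105, 107, 103 and 102 CPM at E14.5, a rise of 3.55. Ndrg2 rose by 2.97, Aldoc by 2.82, Rlbp1, a retinaldehyde-binding protein, by 2.701, Gm29260 by 2.59, Fam210b by 2.52 and Ezr, a membrane linker of the cytoskeleton, by 2.40. Hbb-bs, an adult-type beta globin, rose by 3.71 and is a red blood cell gene; it did not pass without WT F2 at E14.5 (adjusted p = 0.063), and its adjusted p was also above 0.05 without the barcodes of highest UMI counts. The largest falls within these limits were those of Ebf2, a helix-loop-helix factor of early-born neurons, at 89.7, 98.2, 103 and 150 CPM and then 3.51, 2.58, 3.02 and 2.82 CPM (-5.18), and of Crabp2, a carrier of retinoic acid, at 255, 368, 377 and 574 CPM and then 12.2, 10.5, 9.07 and 15.02 CPM (-5.04). They were followed by the embryonic globin Hbb-y (-4.24), Rcan2 (-3.72), the adhesion gene Cntnap2 (-3.41), the LIM homeobox factor Lhx9 (-3.01), Nhlh2 (-3.01) and the neuronal stathmin Stmn2 (-2.76). Nhlh2 is also in the Cajal-Retzius list, whose sum was highest at E12.5. The part of Cajal-Retzius RNA in these falls was not tested.

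Within the same limits of level and overlap, the rises at the second step were led by Ptprz1, a receptor phosphatase of progenitors, with 16.03, 15.3, 26.3 and 14.1 CPM at E14.5 and 39.5, 54.2, 49.7 and 44.4 CPM at E16.0 (1.44), then Trim9 (1.34), Cbx3 (1.32), Lima1 (1.202), Acot1 (1.12), Mir100hg (1.11), Pou3f2 and Cdk6. The falls were those of Cdkn1c, Ppp1r14a (-1.34), the alpha tubulin Tuba4a (-1.33), Hey1, Id4, an inhibitor of helix-loop-helix factors (-1.09), Nxph4 (-1.06), Nhlh1 and the imprinted RNA Meg3, with 361, 356, 329 and 369 CPM and then 172, 170, 204 and 167 CPM (-0.99). At the third step Apoe, a lipid carrier, rose from 26.0, 18.7, 21.1 and 21.2 CPM to 40.2, 59.8, 58.2 and 60.3 CPM (1.32), with Gm17750 (1.29), Galnt17 (1.28), Nav2 (1.22), the peptide-amidating enzyme Pam (1.14), the metallothionein Mt2 (1.13), Sema3c and Kctd4 (1.03). Mt2 did not pass without WT M2 at E17.5 (adjusted p = 0.071), and its adjusted p was also above 0.05 in thinned cells and without the barcodes of highest UMI counts. Within these limits Neurog1 led the falls, before the lysophosphatidic acid receptor gene Lpar1 (-1.73), Fhl1 (-1.195), Rprm, a cell cycle arrest gene, with 290, 291, 261 and 320 CPM and then 128, 111, 133 and 136 CPM (-1.19), Dll1, Dpysl4 (-1.11), Shisa2 (-1.08) and the glypican Gpc4 (-1.05). All 16 genes named for this step passed also without the 3 libraries that stood apart.

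For the comparison of genotypes, the targeted gene comes first. Chd8 was at 54.8, 39.3, 45.7 and 45.6 CPM in WT and 43.7, 35.6, 21.6 and 40.2 CPM in het libraries at E12.5, and at 44.8, 37.9, 47.9 and 41.1 CPM against 38.4, 41.1, 47.8 and 36.9 CPM at E14.5. At E16.0 it was at 45.6, 50.03, 46.7 and 49.6 CPM against 36.6, 36.7, 42.9 and 45.1 CPM, and at E17.5 at 75.9, 50.5, 49.8 and 52.0 CPM against 52.0, 39.7, 56.5 and 42.1 CPM. Het libraries were lower in 14 of 16 comparisons, and the groups separated without overlap only at E16.0. Over all stages the change was -0.23 (SE 0.07, unadjusted p = 0.0035 by edgeR's quasi-likelihood test). Adjusted over 11417 genes the p was 0.38, so Chd8 did not pass. The change was -0.34, -0.07, -0.25 and -0.26 at the stages in order. It was -0.32 in cycling intermediate progenitors (adjusted p = 0.068), -0.28 in radial glia and -0.34 in neurons of the same libraries. Whether the counted 3′ ends lie in the altered part of the allele is not given in the sources used here, so these values do not test the labels, and Gm26590 and Snord8 overlap Chd8.

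Over the 4 stages, 11 of 11417 genes (0.0963%) passed between het and WT, 8 upwards and 3 downwards in het. An unadjusted p under 0.05 was reached by 740 genes, the count from DESeq2 was 27, with same-numbered libraries as a block it was 43, and 19 genes passed once het M2 of E12.5 was left out, 8 of them shared. Fewer than 11 passed in thinned cells and without the libraries of E12.5, as given at the end. Crlf2, a cytokine receptor subunit, Sfxn1, a serine transporter of the mitochondrion, and Car14, a membrane-bound carbonic anhydrase, passed under all 41 alternatives tried. Their promoters are shown since these are the genes whose call no alternative ended, 250 bases before to 50 after the start of transcription, 5′ to 3′ on the strand of the gene, from RefSeq on GRCm38.p6, with CCGGAA or its reverse complement TTCCGG, the core letters bound by ETS factors, in capitals.
Sfxn1, chr13:54071595-54071894, plus strand: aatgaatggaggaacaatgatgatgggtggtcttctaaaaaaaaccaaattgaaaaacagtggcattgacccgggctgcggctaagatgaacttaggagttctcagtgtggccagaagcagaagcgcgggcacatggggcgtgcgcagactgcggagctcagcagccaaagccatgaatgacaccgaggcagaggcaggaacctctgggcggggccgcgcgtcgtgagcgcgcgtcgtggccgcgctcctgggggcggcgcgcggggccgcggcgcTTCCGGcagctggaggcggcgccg
Crlf2, chr5:109558944-109559243, minus strand: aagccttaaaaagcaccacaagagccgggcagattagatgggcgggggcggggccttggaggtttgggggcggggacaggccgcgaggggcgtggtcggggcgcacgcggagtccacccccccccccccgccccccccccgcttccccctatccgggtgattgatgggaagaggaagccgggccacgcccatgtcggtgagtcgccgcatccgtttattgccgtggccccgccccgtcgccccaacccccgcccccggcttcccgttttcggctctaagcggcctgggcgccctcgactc
Car14, chr3:95904636-95904935, minus strand: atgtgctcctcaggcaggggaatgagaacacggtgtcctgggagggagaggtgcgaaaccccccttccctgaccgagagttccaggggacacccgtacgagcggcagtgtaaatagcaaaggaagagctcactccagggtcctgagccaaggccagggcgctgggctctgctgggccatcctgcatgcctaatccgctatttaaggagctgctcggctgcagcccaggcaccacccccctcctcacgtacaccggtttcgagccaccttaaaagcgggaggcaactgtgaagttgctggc
The Sfxn1 window holds 1 TTCCGG, after the start of transcription, and the other windows hold neither form. Of 14 RefSeq promoters of the 11 called genes 2 hold the motif, those of Sfxn1 and Chmp2a, and of all 32851 promoters of this length 4894 (14.9%) do.

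Crlf2 (chromosome 5, 109554709 to 109558993, minus strand, GRCm38) was higher in het in 16 of 16 comparisons. At E12.5 it was at 7.31, 4.70, 5.32 and 5.85 CPM in WT and at 10.7, 11.2, 9.59 and 10.0 CPM in het, and at E14.5 at 7.18, 6.24, 6.91 and 10.8 CPM against 14.8, 15.4, 14.1 and 16.03 CPM. At E16.0 it was at 10.996, 11.2, 15.47 and 6.44 CPM against 15.53, 20.8, 20.4 and 22.1 CPM, and at E17.5 at 10.5, 14.04, 10.3 and 15.6 CPM against 11.1, 26.5, 19.9 and 21.6 CPM. The groups overlapped only at E17.5, through het M1, one of the libraries that stood apart. The change was 0.83 (SE 0.12, 1.77-fold, adjusted p = 0.00027). It was 0.69 in cycling intermediate progenitors and 0.72 in neurons, both called, and 0.53 in radial glia, not called, of the same libraries.

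Sfxn1 (chromosome 13, 54071869 to 54108342, plus strand) was lower in het in 15 of 16 comparisons. At E12.5 the WT libraries had 113, 123, 122 and 118 CPM and the het libraries 70.4, 92.8, 55.1 and 63.3 CPM, and at E14.5 80.0, 86.3, 73.4 and 91.1 CPM against 81.3, 73.3, 52.1 and 66.2 CPM. At E16.0 they had 73.6, 70.3, 67.0 and 61.5 CPM against 52.6, 56.9, 52.0 and 51.2 CPM, and at E17.5 59.9, 57.7, 57.6 and 61.3 CPM against 33.3, 47.6, 35.4 and 44.5 CPM. All het libraries lay under all WT libraries at E12.5, E16.0 and E17.5, and overlapped at E14.5. The change was -0.46 (SE 0.06, adjusted p = 0.00026); it was -0.45 in cycling intermediate progenitors, called, and -0.26 in radial glia and -0.30 in neurons, not called.

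Car14 (chromosome 3, 95897768 to 95904691, minus strand, overlapped on the other strand by Aph1a) was lower in het in 15 of 16 comparisons. It was at 22.9, 16.2, 19.1 and 16.8 CPM in WT and at 8.53, 14.4, 14.4 and 22.1 CPM in het at E12.5, and at 29.4, 43.0, 34.1 and 38.3 CPM against 26.8, 28.5, 19.2 and 27.4 CPM at E14.5. At E16.0 it was at 21.3, 24.5, 25.6 and 28.7 CPM against 15.8, 17.9, 16.1 and 19.7 CPM, and at E17.5 at 10.97, 14.04, 20.6 and 23.9 CPM against 3.41, 6.35, 3.98 and 9.62 CPM. The groups overlapped at E12.5, through het F2, and at no later stage. The change was -0.72 (SE 0.12, adjusted p = 0.0018) over the stages and -1.54 at E17.5 alone, where it did not pass (adjusted p = 0.075). In cycling intermediate progenitors it was -0.68, called, and in radial glia and neurons -0.21 and -0.62, not called.

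**Figure D5:**
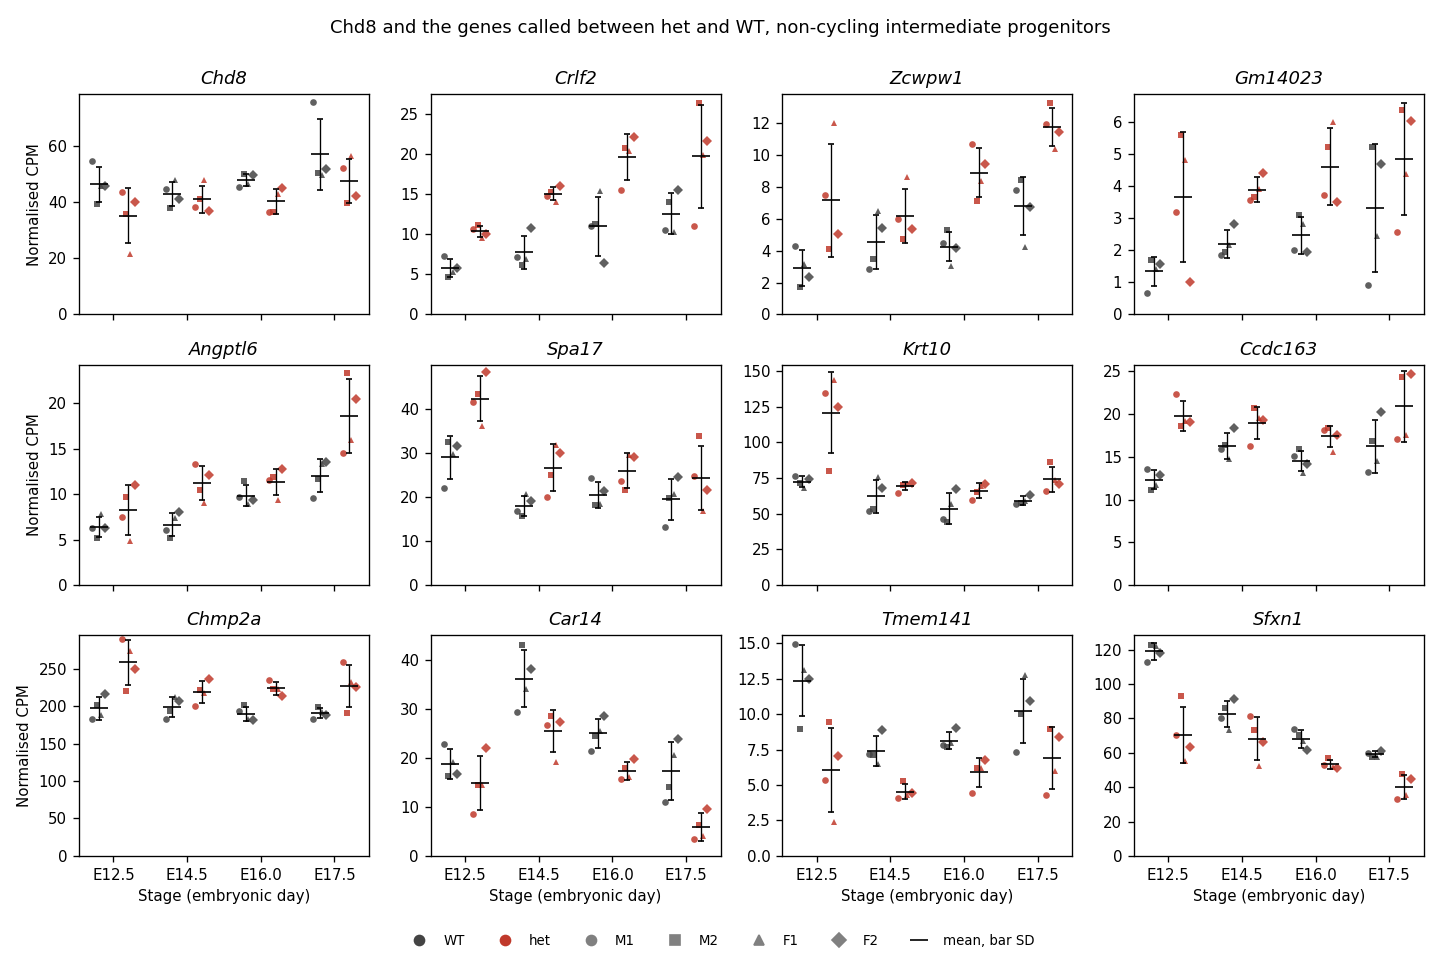
Level (CPM scaled by library factors, linear axes from 0) of Chd8 and the 11 genes called between het (red) and WT (grey) over the stages in non-cycling intermediate progenitors; each symbol is a library, and the horizontal line and bar are the mean and SD of 4. The mean of Crlf2 is higher and the means of Sfxn1 and Car14 are lower in het at every stage.

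Chmp2a (chromosome 7, 13032010 to 13034807, minus strand), a subunit of the membrane-remodelling ESCRT-III complex, was the most abundant gene that rose in het. At E12.5 it was at 183, 201.1, 188 and 216 CPM in WT against 289, 221, 273 and 250 CPM in het, at E14.5 at 183, 193, 213 and 207 against 200, 221, 217 and 236 CPM, at E16.0 at 193, 200.8, 182 and 182 against 235, 223, 223 and 214 CPM, and at E17.5 at 182, 199, 192 and 188 against 259, 190, 232 and 225 CPM. Groups were apart at E12.5 and E16.0 and overlapped at E14.5 and E17.5, and het was higher in 15 of 16 comparisons. The change was 0.25 (SE 0.05, adjusted p = 0.013), but it did not pass in thinned cells, without a filter on low counts, without the 3 libraries that stood apart or without E12.5.

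Krt10, a keratin gene, rose by 0.37 (SE 0.07, adjusted p = 0.015), with het above WT in 15 of 16 comparisons. Its E12.5 values were 76.4, 71.3, 67.7 and 74.5 CPM in WT and 134, 79.8, 144 and 125 CPM in het, where the 3 shallow libraries were the highest, and from E14.5 on its group means were 62.3, 53.6 and 59.2 CPM in WT against 69.4, 66.2 and 74.1 CPM. It did not pass without E12.5, with at least 3 Eomes UMIs or in thinned cells. Gm11940 overlaps Krt10 on the other strand. Krt10 was also called in cycling intermediate progenitors (0.40) and neurons (0.50).

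Zcwpw1, a reader of histone methylation best known from the germ line, rose by 0.80 (SE 0.15, adjusted p = 0.013) in 15 of 16 comparisons, and it was called in cycling intermediate progenitors (0.79), radial glia (0.84) and neurons (0.85) as well. At E16.0 it was at 4.49, 5.29, 3.05 and 4.19 CPM in WT and at 10.7, 7.07, 8.39 and 9.42 CPM in het, and at E17.5 at 7.77, 8.42, 4.25 and 6.75 CPM against 11.9, 13.2, 10.3 and 11.4 CPM, without overlap at either stage. Zcwpw1 and Gm14023, an uncharacterised transcript that overlaps Il1a on the other strand and changed by 0.97 (SE 0.19, adjusted p = 0.017), lie under the level of 8 CPM set for naming genes and are named because the count is small. Pilra overlaps Zcwpw1 on the other strand. Zcwpw1 did not pass in thinned cells (adjusted p = 0.064), and Gm14023 did not without E12.5, without het M2 at E12.5 or with at least 3 Eomes UMIs.

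Tmem141, a small membrane protein gene, fell by 0.60 (SE 0.11, adjusted p = 0.013), with het below WT in 15 of 16 comparisons. At E14.5 it was at 7.18, 7.10, 6.48 and 8.92 CPM in WT and 4.12, 5.30, 4.31 and 4.41 CPM in het, and at E16.0 at 7.85, 7.71, 7.97 and 9.01 CPM against 4.40, 6.21, 6.23 and 6.79 CPM. It did not pass in thinned cells or without E12.5, and Fcnaos overlaps it on the other strand. Angptl6, a secreted angiopoietin-like protein gene, rose by 0.54 (SE 0.10, adjusted p = 0.013), higher in 15 of 16, Ccdc163 by 0.37 (SE 0.07, adjusted p = 0.019), higher in 16 of 16, and Spa17, a sperm surface protein gene, by 0.45 (SE 0.09, adjusted p = 0.042), higher in 13 of 16. Angptl6 did not pass in thinned cells or without het M2 at E12.5, Ccdc163 not under 6 of 41 alternatives, among them without het M2 at E14.5 and without het M2 at E17.5, and Spa17 not under 22 of 41, 19 of which leave out a single library. A230050P20Rik overlaps Angptl6, Tesk2 and Gm27688 overlap Ccdc163 on the same strand, and Siae overlaps Spa17.

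For all 11 genes the mean difference had the same sign among the 8 male and the 8 female comparisons, for example 0.74 and 0.78 for Crlf2, -0.40 and -0.59 for Sfxn1 and -0.69 and -0.72 for Car14 on the log2 scale. The genes were called over these same libraries, so the shared sign is a description and adds no support. The neighbouring classes come from the same libraries and are not independent of these values.

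At single stages 0 of 11417 genes passed between het and WT by edgeR's quasi-likelihood test. Genes with an unadjusted p under 0.05 numbered 1131 at E12.5, 218 at E14.5, 208 at E16.0 and 664 at E17.5, and DESeq2 called 121, 0, 0 and 1. DESeq2 gave no adjusted p to 9296 of the 11417 genes at E12.5, so its 121 come from a smaller set. The count at E12.5 depended on the fit and on 1 library: with same-numbered WT and het libraries as a block 150 genes passed, and without het M2, the only deep het library of the stage, 307 did, 139 higher and 168 lower. With the block 0 passed at E14.5, 2 at E16.0 and 1 at E17.5. Genes whose response differed between stages numbered 0 as well, with 363 at an unadjusted p under 0.05 and 0 by DESeq2. With the block 1 gene passed for this difference, and some passed without a filter on low counts, as given at the end. Some lists, chosen here after their values were seen, had fitted values mostly of 1 sign although none of their genes passed. At E12.5 values were positive for 20 of 20 G2 and M phase genes (median 0.56) and 2 of 15 excitatory neuron markers (-0.25). At E14.5 they were positive for 15 of 15 radial glia markers (0.04) and 19 of 20 S phase genes (0.13), at E17.5 for 1 of 20 S phase genes (-0.18) and over the stages for 3 of 22 temporal genes (-0.07). The medians over all genes lay between -0.0129 and 0.0029.

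No listed gene passed between het and WT over the stages outside a list of 5 genes that an earlier summary of these same data had named, which is no independent evidence: Crlf2, Zcwpw1 and Car14 passed, and Gsta4, a glutathione transferase (-0.41, adjusted p = 0.51), and Chd8 did not. The markers Neurog2, Sstr2 and Mfap4 had changes of 0.04, -0.11 and -0.06 (adjusted p = 0.99, 0.86 and 0.96), with het higher in 10, 6 and 6 of 16 comparisons. Of 19 proneural, 22 Wnt, 19 chromatin remodelling, 12 upper-layer and 10 deep-layer genes none passed in either direction. The same holds for the 3 Notch ligands, 12 receptors and modulators and 5 targets, and for the 20 genes each of S phase, of G2 and M phase and of G1 and cell cycle exit.

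Whether het and WT differ in another way here than in cycling intermediate progenitors was tested across 11574 genes. Cd24a, a cell surface glycoprotein, and Tmsb10, an actin-binding thymosin, passed (0.0173%), with differences of -0.24 (SE 0.04) and -0.16 (SE 0.03), both with an adjusted p of 0.016, and 859 genes had an unadjusted p under 0.05. In CPM not scaled by library factors, Cd24a averaged 987 CPM in WT and 913 CPM in het intermediate progenitors without cycling genes and 639 and 694 CPM in cycling ones (16 libraries each). On the same scale Tmsb10 averaged 3537 and 3826 CPM against 2767 and 3234 CPM. Neither gene passed within the non-cycling cells alone (adjusted p = 0.92 and 1.00), and the ranges of the genotypes overlap widely. With same-numbered libraries as a block neither difference passed (adjusted p = 0.77 and 1.00). Neither passed without the barcodes above the 95th percentile of UMIs (adjusted p = 0.66 and 0.65), and 28 genes passed without het M2 at E12.5 or without WT M2 at E17.5.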

How the data were processed

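The deposited matrices hold raw UMI counts per gene and barcode for 32 libraries (10x Genomics 3′ v2 chemistry per the labels' protocols), and the authors made them with Cell Ranger, STAR 2.7.9a and STARsolo on mm10, per the submitters' processing notes. The roles of these tools and the use of strand in counting are not stated there, so genes that overlap others are uncertain. Of 145082 barcodes, 143705 with at least 1000 UMIs and 500 genes were kept. No doublet caller was run; an alternative left out barcodes above the 95th percentile of UMIs, 349 (2.29%) of the intermediate progenitors. Library totals were 14710694 to 66499864 UMIs. Counts were summed per library, filtered with filterByExpr (minimum count 10, total 15) and tested with edgeR 4.0.16 (TMM factors, quasi-likelihood F-test, 8 groups in 1 fit, Benjamini-Hochberg adjustment over all genes tested, R 4.3.3). DESeq2 1.42.0 served for an alternative, and limma 3.58.1 was loaded with edgeR. Shares were compared with permutation tests (scipy 1.17.1, numpy 2.4.6). The fits were tested on simulated data. Coordinates are GENCODE M21, which matched 99.8% of gene identifiers. P-values measure the spread between libraries.

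The members and gene lists were chosen with earlier results of these data known. Genes were named by rule: Chd8, the markers, called list members with the largest changes (up to 4), and the 8 largest called changes per direction, limited to a mean log2 CPM from 3 upwards and 1 sign at all stages for genotype, or from 5 upwards and no overlap for neighbouring WT stages. For genotype at 1 stage and interactions, called genes with the lowest p were to be named. Alternatives were DESeq2, no filter, a replicate block, thinning to 3000 UMIs, at least 3 Eomes UMIs, a mitochondrial limit of 10%, no barcodes of high UMIs and each library left out; those without E12.5 and without the 3 libraries apart at E17.5 were added after seeing the data. Some listed genes are not reported here.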

Additional observations from a re-analysis of the deposited data

Results flagged for a closer look

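In 256 groups of 4 libraries, 15 held a library whose gap to the nearest other was large for the range of its group (Dixon's 95% limit). Chance gives this in about 1 in 20 groups. WT M1 at E17.5, one of the 3 libraries that stood apart there, accounts for Chd8 at 75.9 CPM, Kctd4 at 59.9 CPM, Apoe at 40.2 CPM, Fhl1 at 12.3 CPM and Tmsb10 at 3327 CPM. The share of non-cycling intermediate progenitors in het M1 at E17.5, another of those 3, was 7.39% of kept barcodes. At E14.5, WT F1 had 26.3 CPM of Ptprz1 and 17.7 CPM of Nhlh2, WT F2 had 16.4 CPM of Trim9 and het F1 had 305 CPM of Sstr2. At E12.5, Ccdc163 was at 22.4 CPM in het M1, Tmsb10 at 4337 CPM in WT M1 and Ndrg2 at 10.5 CPM in WT F2. At E16.0, Meg3 was at 204 CPM in WT F1 and Nav2 at 15.8 CPM in WT F2.

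The difference between het and WT was itself different between non-cycling and cycling intermediate progenitors for Cd24a (-0.24) and Tmsb10 (-0.16, both log2) by edgeR's interaction test. Both calls were lost without the barcodes of highest UMI counts and with the replicate block.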

How the results depend on the processing

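Among single genes, 2579 values under alternatives kept their direction and side of the threshold, 52 lost their call and 2 reversed, both for Neurog2 in het against WT, which was not called (-0.00789 in thinned cells and -0.0497 without E12.5). Same-numbered libraries were not taken as pairs, since the labels, which speak of pairs matched by litter and sex, do not say that a number marks one (sample codes whose meaning is not given start alike in each same-numbered pair), and the correlation of their deviations ran from -0.0132 to 0.776, over 0.1 in 15 of 16; 26 of 32 libraries lay closest to their own number. With a replicate block, 43 genes passed over the stages (all 11 among them), 150 at E12.5, 2 at E16.0, 1 at E17.5, 1 for genotype by stage and 0 for genotype by class. DESeq2 gave 27 over the stages, 121 at E12.5 and 1 at E17.5. Without a filter 19, 2, 2 and 3 genes passed at the stages in order, 4 by stage and 68 by class. Thinned cells gave 4 genes over the stages, 1 at E12.5 and 1745, 309 and 256 between WT stages. At least 3 Eomes UMIs gave 1 at E12.5 and 6 by class. Without barcodes of high UMIs 1 passed at E12.5 and 0 by class. Without the 3 libraries apart at E17.5 4 passed by class, and without E12.5 6 over the stages. The causes were not tested.

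Leaving out 1 library gave 9 to 19 genes over the stages, 0 to 307 at E12.5 (307 without het M2 of that stage, at most 2 without any other), 0 to 1 at E17.5, 2333 to 3155, 361 to 798 and 261 to 591 between WT stages, and 2 to 28 by class, where the dispersion of the whole fit was kept. By class, 28 passed without het M2 of E12.5 or WT M2 of E17.5, 13 and 6 without WT M1 and M2 of E12.5, 10 and 12 without WT M1 and F1 of E14.5, 7 without WT F1 or F2 of E16.0, 5 without het M1 of E16.0 or het F1 of E17.5, and 4 without het F2 of E17.5.

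For the share of kept barcodes, thinning moved the difference between het and WT to -0.363 points at E14.5 and 0.232 at E17.5 and that between WT E14.5 and E16.0 to 0.950; without E12.5 the difference over the stages was 0.155. Leaving out 1 library gave -0.727 to -0.257 points over the stages, -3.37 to -1.70 at E12.5, -0.342 to 1.14 at E14.5, -0.369 to 1.06 at E16.0 and -0.874 to 0.349 at E17.5. Between WT stages it gave 6.78 to 8.26, -1.82 to -0.334 and -5.36 to -3.98 points.

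Depth differed between the genotypes at E12.5, where an average of 12.9% of het and 0% of WT non-cycling intermediate progenitors held under 3000 UMIs. Values after thinning, which leaves those cells out, are given above, and the part of depth in the results was not tested beyond them.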
